A study of Mus musculus with 7 samples.

Results

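Hedgehog signalling starts with a small set of genes whose products make, release and catch the ligand, and 10 of them were followed here: the ligands *Shh*, *Ihh* and *Dhh*, the release factors *Disp1*, *Hhat* and *Scube2*, and the co-receptors *Boc*, *Cdon*, *Gas1* and *Lrp2*. Every probe that the array design names for one of these genes was taken, whatever its signal, which gave 19 of the 41174 probes of the array, for 10 of its 21475 gene names. The RNA came from the posterior second heart field (pSHF), the mesoderm behind the heart tube that supplies the atrial septum, dissected from mouse embryos at E9.5 together with the attached foregut. Pools of Shh -/- embryos gave 4 mutant samples (numbered 1 to 4) and pools of Shh +/+ embryos gave 3 wild-type samples (numbered 1, 3 and 4). All embryos were on a mixed C56B/6 and CD-1 background and came from superovulated females heterozygous for *Shh*, so a replicate is a pool of embryos and not an animal. The question was whether, without *Shh*, the RNA of the other ligands was higher, and how that of the release factors and co-receptors moved.

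Hedgehog ligands are secreted proteins that carry a cholesterol and a palmitate group. *Hhat* attaches the palmitate, *Disp1* exports the lipid-bearing ligand from the cell that makes it, and *Scube2* carries it away from the membrane. On the receiving cell *Cdon*, *Boc* and *Gas1* bind ligand together with the receptor *Ptch1*, and *Lrp2* (megalin) is a large endocytic receptor that takes up *Shh* among many other proteins. In the early embryo *Shh* is made by the notochord, the floor plate and the foregut endoderm, *Ihh* mainly by extra-embryonic and gut endoderm, and *Dhh* by Schwann cell precursors, endothelium and the gonad. In other embryonic tissues *Cdon*, *Boc* and *Gas1* are known as genes that Hedgehog signalling represses.

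The probes are oligonucleotides of 60 bases, and the 30 bases at the 3′ end of those on which the results turn are printed here 5′ to 3′, so that the part of each transcript that was read can be seen. Capitals mark the letters AATAAA, the usual polyadenylation signal. Only the probe of *Dhh* held them, as did 4.78% of all probes of the array.
*Shh*: tgagggaaagattattttgtgaggccaagc
*Ihh* probe 1: agtgcccgaccagaagcctagagtttcaga
*Ihh* probe 2: tggactgcttactccaatgtttctcggggc
*Dhh*: tttgtggccaaAATAAAgattctagagtga
*Gas1*: tttttatcctaaagctcggtactgccatct
*Lrp2* probe 3: ttagacactcacttttgcacatatattttt
*Lrp2* probe 4: atattgcacgtgtgttaacgaatgaatgga
In the mm9 coordinates of the array files, all on the minus strand, these probes lie at chr5:28783983-28784042 (*Shh*), chr1:74994421-74994480 and chr1:74992348-74992407 (*Ihh* probes 1 and 2), chr15:98723465-98723524 (*Dhh*), chr13:60276399-60276458 (*Gas1*), and chr2:69263648-69263707 and chr2:69262566-69262625 (*Lrp2* probes 3 and 4). Whether a position is coding or untranslated was not assigned, because no annotation of that build was used here.

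Each pool was hybridized to 1 single-colour array, and levels are given as log2 normalized signal, in which a difference of 1 is a 2-fold change. Between 60.6% and 71.3% of the 43379 spots of an array were well above background and no spot was saturated. Mutant and wild-type pools of the same number shared a slide, the mutant pool taking the first array of the slide each time, and the effects of that position and of genotype cannot be told apart. No wild-type pool accompanied mutant pool 2, whose labels mention that the array possibly leaked while it was hybridized. Differences are mutant minus wild-type, tested with limma over 23127 probes with Benjamini-Hochberg adjustment. Nothing in the labels says whether the pools came from separate litters, so the tests measure the spread between these pools. In pooled tissue, fewer cells of a type and less RNA per cell cannot be told apart.

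Of the 19 probes, 15 were well above background on all arrays of at least 1 genotype and were tested, with at least 1 for each of the 10 genes. The other 4 were probes 1 and 2 of *Boc* and probes 1 and 2 of *Lrp2*. No tested probe passed an adjusted p of 0.05 in limma, where 0.558% of all tested probes did, 0.264% with a higher and 0.294% with a lower signal in the mutants. At an unadjusted p under 0.05 the members counted 7, against 7.96% of all tested probes. Those 7 were *Shh*, which was lower in the mutants, and *Ihh* (both probes), *Dhh*, *Gas1* and *Lrp2* (probes 3 and 4), which had higher values. In 6 of the 15 every mutant pool lay above every wild-type pool, against 4.77% of all probes with a value on every array, and in 1, *Shh*, every mutant pool lay below, against 3.57% (8.33% for both directions). The median difference of the 15 probes was 0.24 on the log2 scale, against 0.02 over all tested probes, and 13 of the 15 were above 0, as were 55.3% of all. Among the 13 was *Scube2*, well above background on 4 of 4 mutant but 2 of 3 wild-type arrays. It entered the test only through the mutant group, so its sign adds nothing to this count. Probes of the same gene share its transcript and are not independent.

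**Figure D1:**
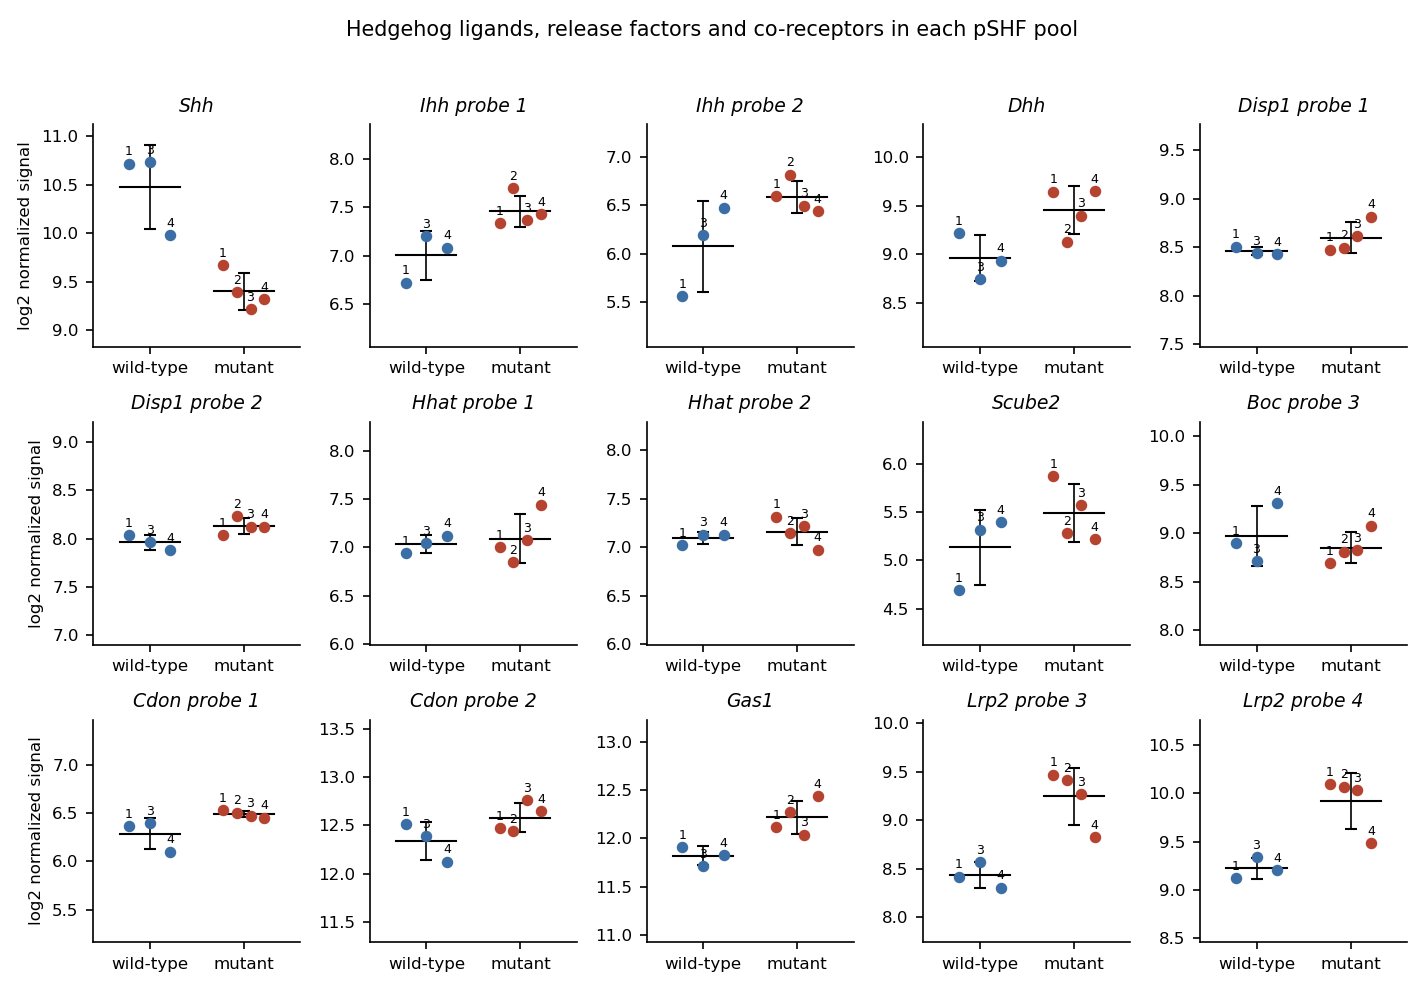
Log2 normalized signal of each tested probe (vertical axis, 1 panel a probe, all panels spanning the same range) in the 3 wild-type pools (blue) and 4 mutant pools (red), each point labelled with its pool number; lines give the mean and bars the SD. *Shh* is lower in every mutant pool than in any wild-type pool. *Ihh* probe 1, *Disp1* probe 2, *Cdon* probe 1, *Gas1* and both *Lrp2* probes are higher in every mutant pool than in any wild-type pool.

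*Shh* itself was read by a single probe design printed in 10 spots per array. Its log2 signal was 10.72, 10.74 and 9.98 in wild-type pools 1, 3 and 4, and 9.67, 9.39, 9.22 and 9.32 in mutant pools 1 to 4. All 4 mutant pools lay below all 3 wild-type pools, and wild-type pool 4 was the lowest of its group. The mean fell by 1.08 (95% interval −1.54 to −0.62, limma adjusted p = 0.0654), which left 47.3% of the wild-type signal (34.4% to 65.1%). The signal stayed well above background on all 4 mutant arrays. The sources used here do not say which part of *Shh* the allele lacks, so the place of this probe relative to it is not known and the signal is no check of the genotype. The 10 spots of an array differed by a median SD of 0.0518 and at most 0.0913, far less than the SD of 0.43 between wild-type pools and 0.19 between mutant pools. On the shared slides 1, 3 and 4 the difference was −1.05, −1.52 and −0.66. The limma adjusted p passed the threshold in 5 of 20 alternatives. It was 0.0408 without wild-type pool 4, with a difference of −1.33. It was 0.0459 with slide as a random block, 0.0364 with a variance trend, 0.00908 with array weights and 0.0352 with the filter on the interquartile range. The other alternatives did not pass. Among them, slide as a fixed block gave 0.0952 and local background normexp 0.110. Leaving out wild-type pool 1 gave 0.303, and leaving out wild-type pool 3 gave 0.224.

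*Shh* comes from endoderm, notochord and floor plate, and the markers of these tissues were read beside it. Of the 12 foregut endoderm genes 9 were below 0 and 0 were called by limma (4 at an unadjusted p under 0.05), with a mean log2 signal of 10.64 to 10.71 over the list in the mutant pools and 10.66 to 10.81 in the wild-type pools. The lowest difference was that of the thyroid and lung regulator *Nkx2-1* (−0.88, adjusted p = 0.0518) and the highest that of *Foxa3* (0.76, adjusted p = 0.101). Of the 7 notochord and floor plate genes 5 were tested and all 5 were below 0, with 0 called by limma and 2 at an unadjusted p under 0.05. *Nkx6-1*, a floor plate and ventral neural gene, had the lowest difference (−0.85, adjusted p = 0.0676). The list mean was 6.53 to 6.62 in the mutant pools and 6.93 to 7.04 in the wild-type pools, so these ranges did not overlap. *T* (brachyury), a defining notochord gene, was well above background on 3 of 3 wild-type arrays and on 0 of 4 mutant arrays, and so entered the test only through the wild-type group. Without *T*, the other 4 genes were below 0, 1 of them at an unadjusted p under 0.05, with list means of 7.14 to 7.31 in the mutant and 7.46 to 7.53 in the wild-type pools. The part of these tissues in the *Shh* difference was not tested.

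Both other ligands gave higher mean signals in the mutants, without passing the adjusted test. Probe 1 of *Ihh* read 7.33, 7.70, 7.37 and 7.43 in mutant pools 1 to 4 against 6.72, 7.20 and 7.08 in wild-type pools 1, 3 and 4. The groups did not overlap, and the nearest pools, mutant 1 and wild-type 3, were close. The difference was 0.45 (0.11 to 0.79, adjusted p = 0.360), and it was 0.61, 0.16 and 0.34 on slides 1, 3 and 4. Probe 2 of *Ihh*, also printed in 10 spots, read 6.59, 6.82, 6.49 and 6.44 in the mutants and 5.56, 6.19 and 6.48 in the wild-type pools. Here the groups overlapped, since wild-type pool 4 lay above mutant pool 4. The difference of 0.51 (0.04 to 0.98, adjusted p = 0.557) was 1.03 on slide 1, 0.30 on slide 3 and −0.04 on slide 4. Without wild-type pool 1 it was 0.26. Spots of this probe differed by a median SD of 0.0658 within an array, against an SD of 0.47 between wild-type pools. The uncorrected mean signals of probe 2 were 61.1 to 157.8 intensity units over a median local background of 21 to 25 units.

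*Dhh* read 9.65, 9.13, 9.40 and 9.65 in mutant pools 1 to 4 and 9.22, 8.74 and 8.93 in wild-type pools 1, 3 and 4. Only mutant pool 2 fell within the wild-type range. Whether the possible leak of its array had a part in this was not tested. The difference was 0.49 (0.11 to 0.88, adjusted p = 0.386), a 1.41-fold higher mean, with 0.43, 0.66 and 0.72 on the 3 slides. On leaving out 1 pool at a time the difference ran from 0.39 without wild-type pool 3 (adjusted p = 0.891) to 0.63 without wild-type pool 1 (adjusted p = 0.410), with 0.61 without mutant pool 2 (adjusted p = 0.254). With array weights it was 0.67 (adjusted p = 0.0444). That setting gave wild-type pool 3, the lowest pool for *Dhh*, a weight of 5.88, against 0.47 to 1.20 for the other arrays. Of the 6 neural crest and Schwann cell precursor genes 5 were tested, all 5 were below 0 and 0 were called by limma (2 at an unadjusted p under 0.05), with list means of 8.41 to 8.82 in the mutant and 8.85 to 9.26 in the wild-type pools. *Foxd3*, which specifies neural crest, had the lowest difference (−0.59, adjusted p = 0.593). Of the 9 endothelial genes 8 were above 0 and 0 were called by limma (1 at an unadjusted p under 0.05), with list means of 10.89 to 11.29 in the mutant and 10.93 to 11.06 in the wild-type pools. *Tie1*, an endothelial receptor, had the highest difference (0.36) and *Pecam1* the lowest (−0.06). Their part in the *Dhh* values was not tested. Because probes differ in how strongly they bind, the signals of the 3 ligands were not set against each other or added.

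**Figure D2:**
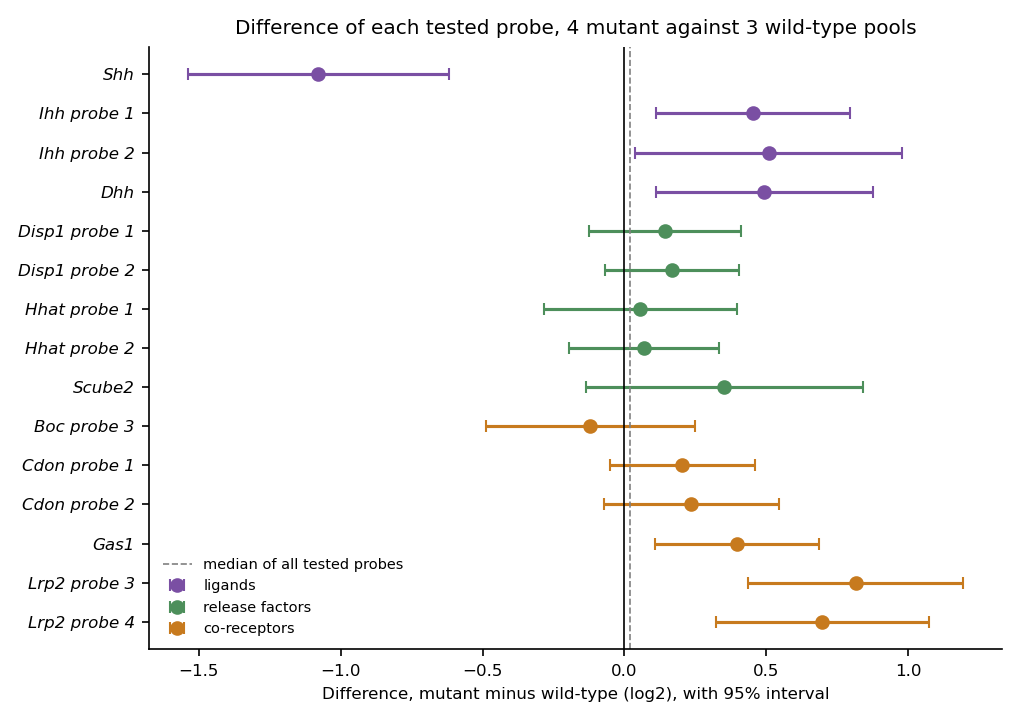
Difference between mutant and wild-type pools (horizontal axis, log2) for each tested probe, with the 95% interval of the limma fit, coloured by role; the dashed line is the median of all tested probes. Only the *Shh* interval lies below 0, and those of *Ihh*, *Dhh*, *Gas1* and *Lrp2* lie above 0.

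For no release factor did the 95% interval of the difference exclude 0. Probe 1 of *Disp1*, the exporter, read 8.47 to 8.81 in the mutants and 8.43 to 8.50 in the wild-type pools, with a difference of 0.14 (−0.13 to 0.41). Probe 2 read 8.04 to 8.23 and 7.88 to 8.04, and its groups did not overlap by a narrow margin, at a difference of 0.17 (−0.07 to 0.41, adjusted p = 0.910). *Hhat*, the palmitoyl transferase, gave 0.06 (−0.29 to 0.40) at probe 1 and 0.07 (−0.20 to 0.33) at probe 2, both with overlapping groups. *Scube2*, the soluble carrier, was well above background on 4 of 4 mutant and 2 of 3 wild-type arrays. It read 5.87, 5.28, 5.57 and 5.22 in the mutants and 4.69, 5.32 and 5.39 in the wild-type pools, with a difference of 0.35 (−0.14 to 0.84, adjusted p = 0.899). On slides 1, 3 and 4 it was 1.18, 0.25 and −0.17, and so differed in sign between slides. It was 0.13 without wild-type pool 1 and 0.22 without mutant pool 1. The upper ends of the *Disp1* and *Hhat* intervals, 0.33 to 0.41 on the log2 scale, bound how much higher these data allow them to be.

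Among the co-receptors the differences ran from −0.12 at *Boc* to 0.81 at *Lrp2*. *Boc* probe 3 read 8.69, 8.81, 8.83 and 9.08 in the mutants and 8.90, 8.71 and 9.31 in the wild-type pools, an overlap with a difference of −0.12 (−0.49 to 0.25). Probe 2 of *Boc* was not well above background on any array, and probe 1 only on 3 of 4 mutant and 1 of 3 wild-type arrays. *Cdon* probe 1 read 6.45 to 6.53 in the mutants and 6.10 to 6.39 in the wild-type pools, without overlap and with a difference of 0.20 (−0.05 to 0.46, adjusted p = 0.822). *Cdon* probe 2 read 12.44 to 12.76 and 12.13 to 12.51, with overlap and a difference of 0.24 (−0.07 to 0.54, adjusted p = 0.860). Without wild-type pool 4 the *Cdon* differences were 0.11 at probe 1 and 0.13 at probe 2.

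*Gas1*, a membrane-anchored co-receptor, read 12.12, 12.27, 12.04 and 12.44 in mutant pools 1 to 4 and 11.91, 11.72 and 11.83 in wild-type pools 1, 3 and 4. All mutant pools lay above all wild-type pools, though wild-type pool 1 and mutant pool 3 were near each other. The difference was 0.40 (0.11 to 0.69, adjusted p = 0.338), with 0.21, 0.32 and 0.61 on the 3 slides.

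*Lrp2* had the highest difference of the 10 genes. Probe 3 read 9.47, 9.41, 9.27 and 8.83 in mutant pools 1 to 4 and 8.42, 8.57 and 8.31 in wild-type pools 1, 3 and 4. Probe 4, which lies nearby on the same strand, read 10.09, 10.07, 10.03 and 9.49 in the mutants and 9.12, 9.34 and 9.20 in the wild-type pools. At both probes the groups did not overlap, and mutant pool 4 was the lowest mutant. The difference was 0.81 at probe 3 (0.43 to 1.19, limma adjusted p = 0.0870), a 1.76-fold higher mean, and 0.70 at probe 4 (0.32 to 1.07, adjusted p = 0.137), a 1.62-fold higher mean. On slides 1, 3 and 4 it was 1.05, 0.70 and 0.52 at probe 3 and 0.97, 0.69 and 0.28 at probe 4. Each probe passed the threshold in 2 of 20 alternatives. Without mutant pool 4 the differences were 0.95 (adjusted p = 0.0301) and 0.84 (adjusted p = 0.0335), and with array weights the adjusted p was 0.0167 and 0.0231. In the other alternatives neither probe passed. The adjusted p was 0.317 and 0.437 without wild-type pool 1, and 0.172 and 0.246 without the filter on dim probes. Probes 1 and 2 lie further from the 3′ end, each across an exon junction. Probe 1 was well above background on 1 of 4 mutant and 0 of 3 wild-type arrays. Probe 2 was so on 1 mutant array, its spot for mutant pool 1 being dropped as an outlier, and on 1 of 3 wild-type arrays. Probes 1 and 2 were therefore not tested and gave no difference to set beside these.

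**Figure D3:**
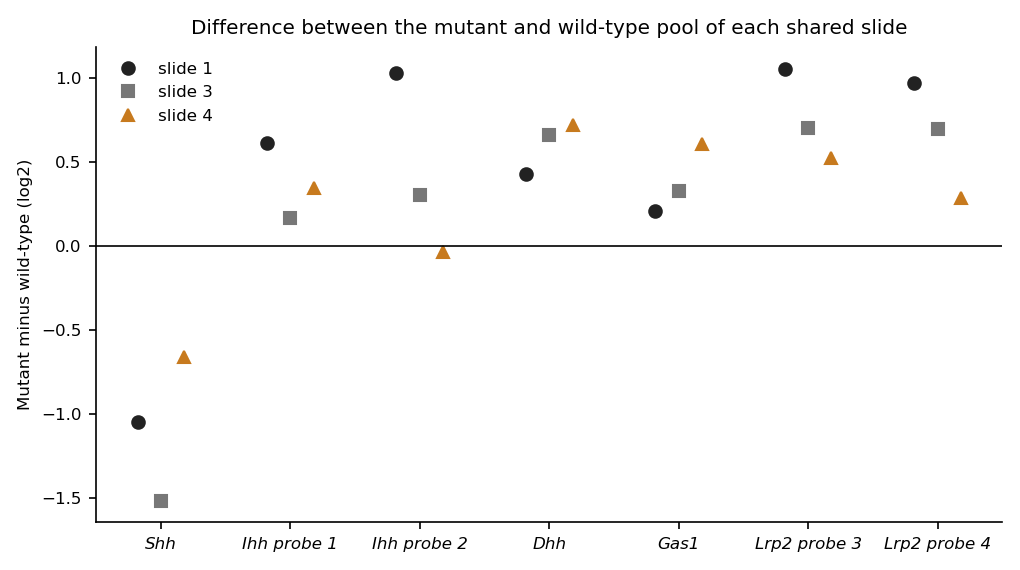
Mutant minus wild-type difference (vertical axis, log2) between the pools that shared slide 1, 3 or 4, for the 7 probes with an unadjusted p under 0.05. All slides give a negative difference for *Shh* and a positive one for the others, except *Ihh* probe 2 on slide 4 at −0.04.

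*Lrp2* is abundant in visceral endoderm, in nephric tissue and in neuroepithelium, and markers of these were read beside it. Of the 10 liver bud and visceral endoderm genes 9 were tested and all 9 were above 0. *Ttr* (0.91, limma adjusted p = 0.0321) and *Alb* (1.22, adjusted p = 0.0498), which encode plasma proteins, were called higher. These calls depend on the pools used, since without mutant pool 3 every probe called on the array was lower in the mutants. The list mean was 11.12 to 11.50 in the mutant pools and 10.40 to 10.79 in the wild-type pools, without overlap. Of the 6 nephric and intermediate mesoderm genes 5 were tested and 3 were above 0, with 0 called by limma and 3 at an unadjusted p under 0.05. *Wt1*, a regulator of coelomic epithelium and kidney, had the highest difference (0.83, adjusted p = 0.0612) and *Gata3* the lowest (−0.30, adjusted p = 0.559). This list mean was 7.85 to 7.92 in the mutant pools and 7.55 to 7.64 in the wild-type pools, again without overlap. Of the 10 neural tube genes 7 were tested and 6 were below 0, among them *Zic1*, which fell by 1.92 (adjusted p = 0.0442). Their list mean was 6.58 to 7.25 in the mutant and 7.36 to 7.60 in the wild-type pools, and the highest difference was that of *Nes* (0.05). *Neurog1* and *Neurog2* were well above background on 3 of 3 wild-type but only 3 of 4 mutant arrays. Of the 5 genes well above background on all arrays 4 were below 0. Their list means were 7.37 to 7.73 in the mutant and 7.91 to 8.14 in the wild-type pools. The same lists stand beside *Ihh*, which is also made by visceral endoderm. Their part in the *Lrp2* and *Ihh* values was not tested.

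**Figure D4:**
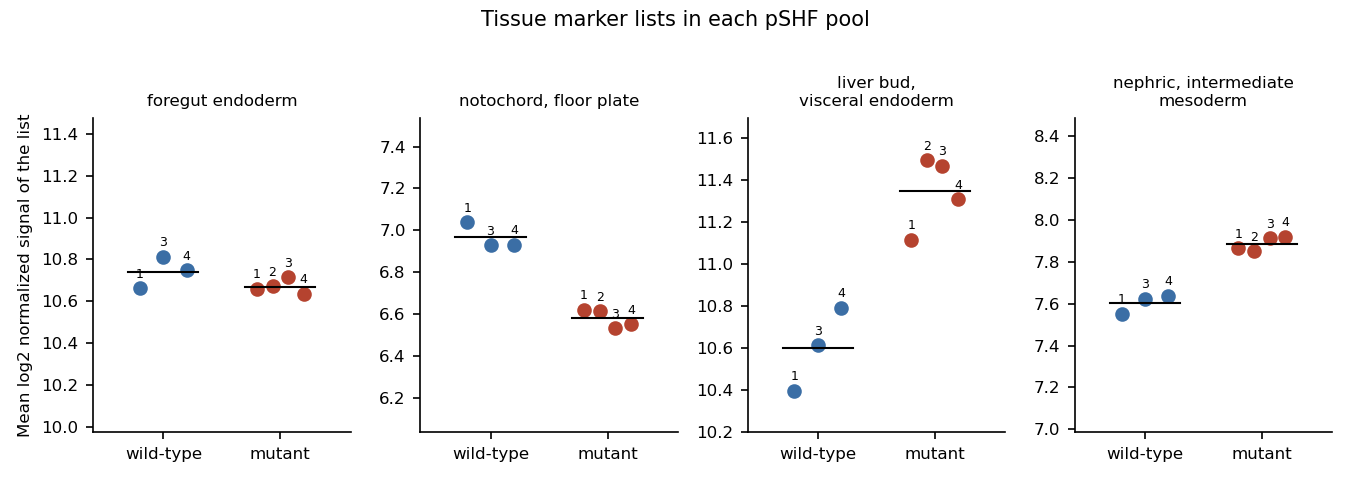
Mean log2 normalized signal (vertical axis, each panel spanning the same range) of the tested genes of 4 tissue marker lists in each wild-type (blue) and mutant (red) pool, labelled by pool number, with the group mean as a line. The foregut endoderm means overlap between genotypes, while the notochord and floor plate means are lower and the liver bud and nephric means higher in every mutant pool.

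The remaining tissue lists are given as values. Whether they reflect the makeup of the dissected tissue or the RNA per cell was not tested. Of the 11 posterior second heart field genes all were tested, and 9 were below 0. *Foxf2*, a forkhead regulator of foregut mesenchyme, fell by 2.43 (adjusted p = 0.00216), and the highest difference was that of *Wnt2* (0.09). All 8 sclerotome and dermomyotome genes were tested and 6 were below 0. The sclerotome regulator *Pax1* fell by 3.01 (adjusted p = 0.0426). Its relative *Pax9* was well above background on 3 of 3 wild-type arrays and on 1 of 4 mutant arrays, and no size is given for its difference. Of the 6 genes of the list that were well above background on all arrays 4 were below 0, and *Tbx18* had the highest difference (0.47). All 8 erythroid genes were below 0, and all 9 cardiomyocyte genes were above 0, the highest being *Tnni1* (0.37), with 0 of either list called by limma (3 and 0 at an unadjusted p under 0.05).

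Beyond the 10 genes, most receptors and transducers of the pathway lay below 0. All 13 were tested, 10 were below 0, and the median difference was −0.12 against 0.02 over all tested probes. *Hhip*, the ligand-binding antagonist that is itself a Hedgehog target, fell by 2.83 (adjusted p = 0.00127). The receptor *Ptch1* gave −1.17 (adjusted p = 0.143), and the effector *Gli1* gave −1.02 (adjusted p = 0.0676), each with every mutant pool below every wild-type pool. The highest was the transcription factor *Gli3* (0.15).

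Of 5 paralogs and helpers of ligand release, *Scube1*, *Scube3* and *Adam17* were tested, with differences of 0.03, 0.07 and −0.02, and *Disp2* and *Hhatl* were not. Of 12 glypicans and other heparan sulfate genes, which bind ligand at the cell surface, 11 were tested and 10 were above 0, with a median of 0.08. Their extremes were *Gpc2* (−0.80, adjusted p = 0.418) and the proteoglycan *Hspg2* (0.44, adjusted p = 0.240). All 8 partners and relatives of *Lrp2* were tested and 5 were above 0, with a median of 0.16. The highest was the endocytic receptor *Lrp1* (0.36, adjusted p = 0.713), while *Cubn* (cubilin), with which *Lrp2* works in endocytosis, gave 0.13. None of these 3 lists held a gene called by limma, and 0, 2 and 1 of their genes had an unadjusted p under 0.05.

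**Figure D5:**
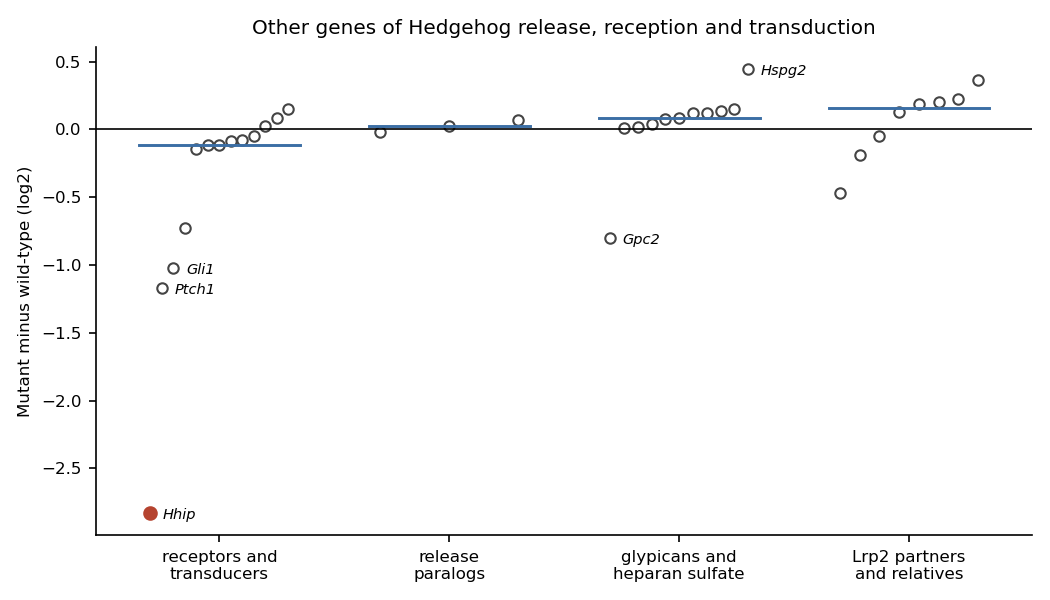
Mutant minus wild-type difference (vertical axis, log2) of every tested gene in 4 lists of other Hedgehog pathway genes, ordered within each list, with the list median as a line and a filled point for an adjusted p under 0.05. *Hhip* is the only filled point, and *Ptch1* and *Gli1* have the next lowest differences among the receptors and transducers.

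The genes whose levels most resembled those of 3 members over the 7 arrays were named by Pearson's correlation, as a description. For *Shh* these were *1700045I19Rik* (r = 0.980), *Csn3* (r = 0.977) and *Cldn10* (r = 0.970). For *Lrp2* they were *Lpl* (r = 0.986), *Plagl1* (r = 0.983) and *Robo1* (r = 0.980). For *Ihh* they were *Ap2a2* (r = 0.992), *Fgf10* (r = 0.984) and *Lass2* (r = 0.979). The 7 points share the genotypes and slides. The 9 genes were picked as the highest among the 23025 tested probes with a value on every array, members left out.

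A promoter window of 300 bases at the transcription start, from RefSeq (GRCm38.p6), was given for 8 of the 10 genes, all but *Shh* and *Boc*. The Gli motif GACCACCCA was found on neither strand in any of the 8, and 0.289% of all genes with such a window had it. Its core ACCACCC was likewise in 0 of 8, against 5.31% of genes. No match says only that these letters are not in this window.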

How the data were processed

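Signals of pSHF RNA from 4 *Shh* mutant and 3 wild-type pools were read from the deposited scan files, in which the authors' Feature Extraction 10.5.1.1 gives mean signal and local background intensity per spot. The authors' normalized log2 values, whose medians run from 5.50 to 9.93 between arrays, were used as an alternative. Groups and numbers came from the labels, in which the strain and the genotype stand in each other's field.

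Mean signals were corrected by normexp from 153 negative control spots (offset 50) and normalized together by VSN, written for this purpose and tested on simulated data (5 strata, 7 iterations, 0.9 of the spots kept in the fit). Outlier spots, 155 to 206 on an array, were dropped and the spots of a probe averaged. The background of 21 to 25 units against median signals of 86.4 to 145.3, and the number of arrays, limit the precision. Tests covered the 23127 probes that carry a gene name, have at least 2 values per group and exceed background clearly on all arrays of 1 or both genotypes, with limma 3.58.1 in R 4.3.3 with the data.table package (1.17.8). A gene of a list was read by its brightest tested probe. Figures used matplotlib 3.10.9 in Python 3.11.15.

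The labels' number marks a shared slide. Deviations from the genotype means correlated at 0.19, 0.24 and 0.03 within slides 1, 3 and 4, against −0.22 to 0.19 over 9 pairs of arrays from different slides. Alternatives were other background corrections, normalizations and filters, outlier spots kept, array weights, slide as a fixed or random block, a variance trend, the authors' values and leaving out each array. Bringing the authors' values to a common median on all arrays was added after seeing the data.

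The members and lists were chosen with earlier results of these data known. Named were all member probes, and from each list the genes called and the largest difference in each direction, with *Ptch1*, *Gli1*, *T*, *Cubn* and the tested release paralogs added after their values were seen. For *Shh* and the 2 other members with the largest differences, the 3 genes of highest correlation were named. Some genes that this rule names are not reported here.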

Additional observations from a re-analysis of the deposited data

Results flagged for a closer look

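At probe 4 of *Lrp2*, mutant pool 4 stood apart from the other mutant pools. Its log2 signal was 9.49, against 10.03 to 10.09 in mutant pools 1 to 3, and its gap to the nearest of them took up 0.902 of the range of the group, above Dixon's 95% critical value for 4 samples. It still lay above all 3 wild-type pools, the highest of which read 9.34. The mutant pools of all 15 tested member probes were examined, and only this group was flagged. Chance alone flags about 1 in 20 groups in this way.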

How the results depend on the processing

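The count of member probes called was 0 in limma and 4 with array weights (*Shh*, *Dhh*, *Lrp2* probes 3 and 4), 1 with the interquartile range filter, slide as a random block or a variance trend (*Shh* each time), and 0 to 2 on leaving out arrays. The array weight was 5.88 for wild-type pool 3 and 0.47 to 1.20 for the other arrays, so results with array weights rest mostly on that wild-type pool. The replicate block with slide as a fixed term changed no member's call (*Shh* −1.08, adjusted p = 0.0952; *Lrp2* probe 3 0.76, adjusted p = 0.129).

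Over the whole array 129 probes were called, against 56 with 75th percentile scaling, 550 with array weights, 33 without the filter on dim probes, 22 with local background normexp, 11 with the slide as a fixed replicate block, and 12 to 139 on leaving out arrays (12 without mutant pool 3). The share of calls that were lower was 52.7%, against 66.1% with 75th percentile scaling, 90.9% with local background normexp and 43.8% with array weights. On leaving out arrays it ran from 42.4% without mutant pool 1 to 100% without mutant pool 3, with 96.8% without wild-type pool 3 and 94.4% without wild-type pool 1. Receptors and transducers called numbered 1, against 4 with array weights, 2 with the interquartile range filter or slide as a random block. With array weights 1 gene was called among the glypicans and 1 among the *Lrp2* partners.

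In the authors' values limma called 0 probes, also of the receptors and transducers, both as deposited (28 at an unadjusted p under 0.05) and at 1 median per array (1038, of which 7 were member probes). As deposited, the median of all probes was −0.54, and the following turned negative while staying above that median: *Cdon* −0.34 and −0.35, *Dhh* −0.15, *Disp1* −0.49 and −0.46, *Gas1* −0.20, *Hhat* −0.50 at both probes, *Ihh* −0.14 and −0.030. None was negative once the same values were at 1 median per array (*Cdon* 0.27 and 0.26, *Dhh* 0.46, *Gas1* 0.41, *Ihh* 0.47 and 0.58), so these sign changes go with the unequal medians of the deposited arrays. *Boc* probe 3 turned to 0.028 with array weights and ran from −0.25 to 0.045 on leaving out arrays (highest without wild-type pool 4). *Hhat* turned to −0.018 (probe 1) and −0.0019 (probe 2) with local background normexp, and probe 1 ran from −0.063 (without mutant pool 4) to 0.14 on leaving out arrays. The cause of the *Boc* and *Hhat* changes was not tested. *Shh* and *Lrp2* kept their direction in all alternatives run. *Scube2* did too, but it entered the test only through the mutant group, and on slide 4 its difference was −0.17. Probes near background, such as *Scube2* and *Ihh* probe 2, are the least certain.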
